A study of Drosophila melanogaster with 3 samples.

Results

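The vacuolar proton pump (V-ATPase) genes of Drosophila melanogaster are described here by where the nuclear protein Insensitive (Insv) lay at their promoters. Members are the protein-coding genes on the major chromosome arms whose symbol starts with Vha, 33 of 13945 protein-coding genes. A gene is called bound where the summit of a reproducible Insv peak lay within 500 bp of any of its transcription start sites (TSSs). Chromatin immunoprecipitation and sequencing (ChIP-seq) with an antibody to GFP was done on 3 biological replicates of whole embryos, males and females pooled, aged 0 to 24 h. All came from 1 transgenic line that stably expresses Insv with GFP at its C-terminal end, and there is no second genotype or treatment. All embryonic tissues are mixed, so weak binding in every cell and strong binding in few cells cannot be told apart.

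The reproducible list, which passed the authors' test of the irreproducible discovery rate (IDR), held 4753 peaks. Each replicate's own list held 30000 regions, of which 8416, 13955 and 12195 had a q-value below 0.05 in replicates 1, 2 and 3. Read depth is not given in the sources used here. The peak score has no stated scale, so peaks are given by rank, with 1 as the strongest.

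The V-ATPase is a rotary machine that uses ATP to pump protons into lysosomes, endosomes and other vesicles, and across the surface of some epithelia. Its V1 sector, in the cytosol, holds the ATPase, and its V0 sector, in the membrane, carries the protons. In flies many subunits have several gene copies. For most of these subunits 1 copy is expressed broadly, including in the epithelia of the renal (Malpighian) tubules, while other copies are limited to particular tissues such as testis or brain. That division was taken from general knowledge, since these data hold no expression values. It was made with earlier results of these data known, so it was not blind to binding.

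Insv lay at 13 of the 33 Vha genes (39.4%, Wilson 95% interval 24.7 to 56.3%), against 24.8% of all protein-coding genes. By subunit, the bound genes fell as follows. Of the pump's 14 kinds of subunit or accessory protein, 5 are encoded by 1 Vha gene, and 4 of these 5 genes were bound. The other 9 kinds have paralogs, and at least 1 paralog was bound for 7 of them. Counted by gene, 9 of the 28 paralogs were bound (32.1%), against 24.8% of all protein-coding genes. Taking from each replicate its 4753 strongest regions instead, 14, 12 and 11 members were bound in replicates 1, 2 and 3, against 25.1%, 24.4% and 22.0% of all genes. The mean was 37.4% ± 4.63 for Vha genes and 23.8% ± 1.61 for all protein-coding genes (SD, n = 3). The excess was present in 3 of 3 replicates and averaged 13.5 ± 3.32 percentage points, larger than the replicate spread. That spread covers only repeated measurement of the same 33 genes. The Wilson interval above, which covers the counting error, includes 24.8%. An exact sign-flip permutation test over the replicates gave p = 0.25, two-sided, the smallest p that 3 replicates allow, and 0.375 after Benjamini-Hochberg adjustment over 6 comparisons. Counting every region of the pooled list with a q-value below 0.05, a setting chosen after the data were seen, 20 of 33 members were bound, against 43.8% of all protein-coding genes. With replicate 1 left out, so that an IDR summit had to lie inside the strongest regions of replicates 2 and 3, 8 members were bound, against 19.1% of all genes.

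The DNA at several of these promoters is shown first, since it holds the sites discussed with the results. Each stretch runs 5′ to 3′ in the direction of the Vha gene, on dm6, in lower case. Capitals mark matches, on either strand, to the core palindrome of Insv (CCAATTGG), the M1BP site (GGTCACAC), the DREF site (TATCGATA), the BEAF-32 site (CGATA, which also lies within the DREF site) and the E-box CACGTG. Vha68-2, Vha68-1 and VhaPPA1-1 are bound genes with BEAF-32 sites near the summit, and VhaSFD is a gene outside the reproducible list whose promoter holds a DREF site. The Vha13 stretch runs from its start codon into the first intron and carries the palindrome, the Vha26 stretch lies in an intron around a strong summit without any of these sites, and the short Vha55 stretch holds the E-box under its summit.
Vha68-2, chr2L:12974022-12974321, plus strand: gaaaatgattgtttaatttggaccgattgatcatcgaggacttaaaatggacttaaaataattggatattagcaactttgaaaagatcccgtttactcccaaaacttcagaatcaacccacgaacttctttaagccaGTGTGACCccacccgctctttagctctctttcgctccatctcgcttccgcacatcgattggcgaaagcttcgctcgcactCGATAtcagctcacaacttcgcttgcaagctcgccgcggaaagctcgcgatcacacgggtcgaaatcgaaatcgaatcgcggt
Vha68-1, chr2L:13004108-13004407, minus strand: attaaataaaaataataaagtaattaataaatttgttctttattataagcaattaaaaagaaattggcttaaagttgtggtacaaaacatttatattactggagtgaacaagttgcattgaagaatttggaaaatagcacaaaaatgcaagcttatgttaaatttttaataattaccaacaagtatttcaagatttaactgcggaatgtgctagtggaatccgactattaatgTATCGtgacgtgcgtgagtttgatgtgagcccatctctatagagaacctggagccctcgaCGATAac
VhaPPA1-1, chr3R:14904062-14904361, minus strand: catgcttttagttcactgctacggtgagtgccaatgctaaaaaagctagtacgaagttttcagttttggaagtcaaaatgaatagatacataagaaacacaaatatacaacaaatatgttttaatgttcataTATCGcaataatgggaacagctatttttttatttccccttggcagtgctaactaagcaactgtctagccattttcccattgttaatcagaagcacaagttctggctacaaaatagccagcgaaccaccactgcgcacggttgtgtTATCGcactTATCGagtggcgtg
VhaSFD, chr2L:16727827-16728034, minus strand: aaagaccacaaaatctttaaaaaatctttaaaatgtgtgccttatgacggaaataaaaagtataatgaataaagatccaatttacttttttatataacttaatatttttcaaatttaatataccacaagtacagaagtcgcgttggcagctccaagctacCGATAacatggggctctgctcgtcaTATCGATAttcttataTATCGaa
Vha13, chr3R:19644122-19644287, minus strand: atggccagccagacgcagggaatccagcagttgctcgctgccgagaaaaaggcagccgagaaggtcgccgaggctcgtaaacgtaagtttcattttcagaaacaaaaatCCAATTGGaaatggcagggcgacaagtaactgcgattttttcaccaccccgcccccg
Vha26, chr3R:5592083-5592283, plus strand: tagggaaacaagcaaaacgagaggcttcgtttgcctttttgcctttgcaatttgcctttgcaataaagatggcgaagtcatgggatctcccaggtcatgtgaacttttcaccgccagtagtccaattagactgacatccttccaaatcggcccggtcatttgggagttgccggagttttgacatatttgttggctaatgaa
Vha55, chr3R:12627756-12627785, minus strand: gtcatgtgacggCACGTGacgtcacagcag

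The first question was whether the broadly expressed genes and the tissue-restricted paralogs differed. Since the classes were set with earlier results of these data known, the contrast is a description and not an independent test. The share was higher for the broad genes in each replicate. Of the 13 broadly expressed subunit genes 9 were bound (69.2%, Wilson 95% interval 42.4 to 87.3%), against 2 of the 14 tissue-restricted paralogs (14.3%, 4.01 to 39.9%). The share of all protein-coding genes, 24.8%, lies inside the interval of the restricted paralogs and below that of the broad genes. In replicates 1, 2 and 3 the strongest regions marked 9, 10 and 8 broad genes, against 3, 0 and 2 restricted ones. Of all protein-coding genes they marked 25.1%, 24.4% and 22.0%. The difference was 47.8, 76.9 and 47.3 percentage points, with a mean of 57.3 ± 17.0 (SD, n = 3). Its exact sign-flip permutation p was also 0.25, two-sided, the smallest that 3 replicates allow (adjusted p = 0.375). In the pooled regions with a q-value below 0.05, the setting chosen after the data were seen, the counts were 12 of 13 broad genes and 4 of 14 restricted ones. The share of all protein-coding genes there was 43.8%. On the IDR list the difference was 54.9 points, and 31.9 points with replicate 2 left out. Among the 4 genes of unsettled breadth Vha68-1 was bound, and of the 2 genes of the Ac45 accessory family VhaAC45 was.

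Each additional TSS widens the stretch in which a summit counts, and Vha68-2 has 5. With only the outermost TSS of each gene the counts were still 9 and 2. Counting listed regions of any rank repeats part of this contrast, since the genes already bound are included. Every broad gene had some listed region within 500 bp in at least 1 replicate, whereas 7 of the 14 restricted paralogs (50%) had none in any replicate, against 34.6% of all protein-coding genes. These 7 were Vha100-3, Vha100-4, Vha14-2, Vha16-2, Vha16-4, Vha36-2 and Vha68-3. They are among the 12 restricted paralogs that were not bound, while each of the 4 unbound broad genes had a region. The 34.6% also includes bound genes, and the share among unbound genes alone is not given here.

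**Figure D1:**
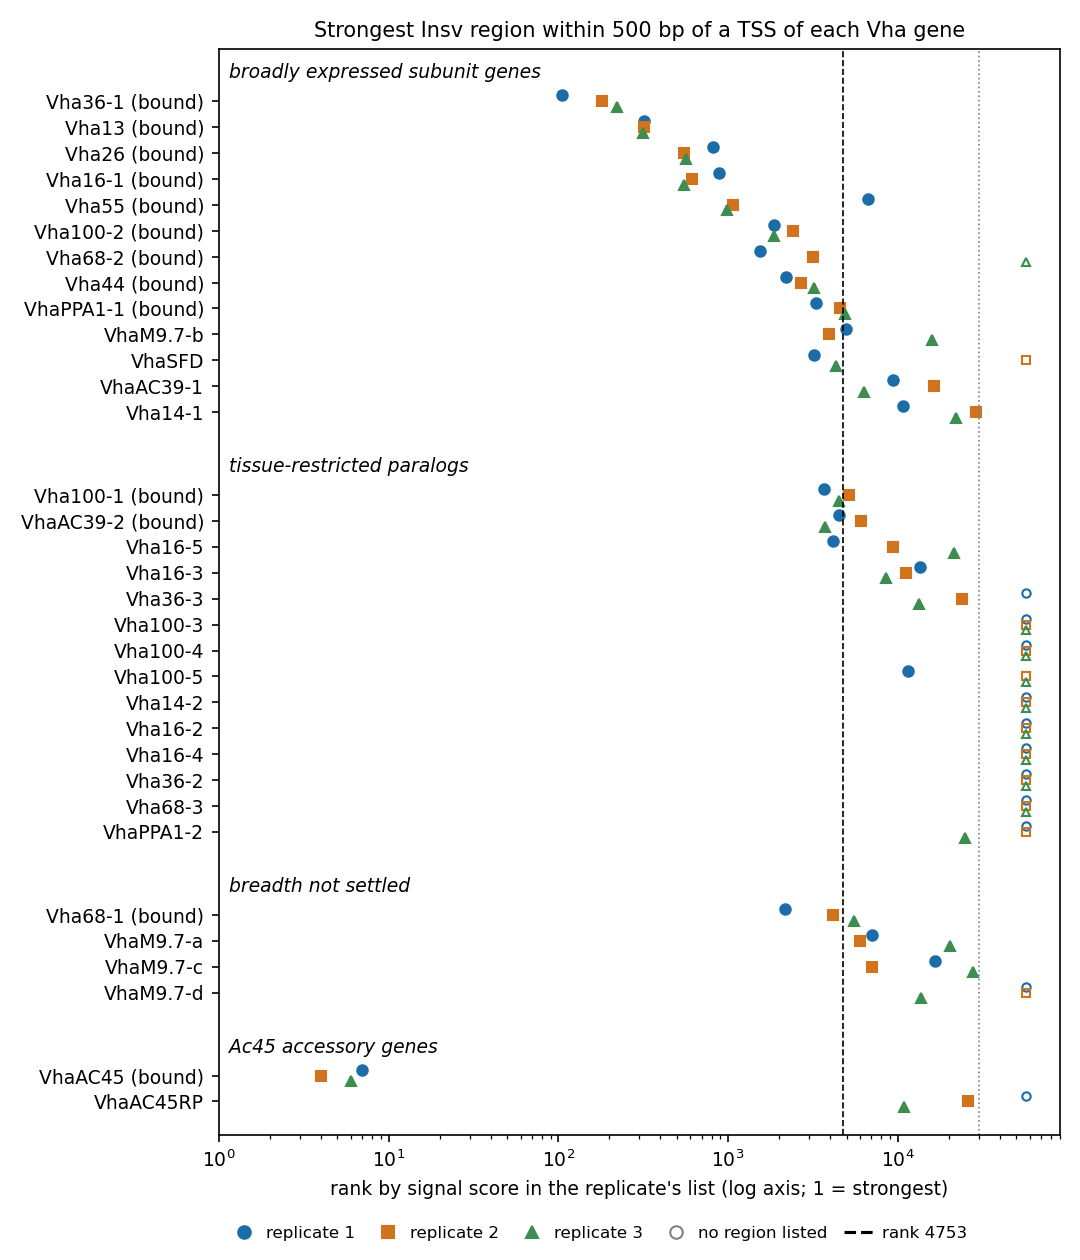
Rank of the strongest Insv region within 500 bp of a TSS of each of the 33 Vha genes, on a log axis, with filled symbols for replicates 1 to 3 and open symbols where a replicate listed no region. The dashed line marks rank 4753 and the dotted line the end of the list at 30000. VhaAC45 stands at ranks 4 to 7, and 7 restricted paralogs have open symbols only.

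In the V1 sector 7 of 13 genes were bound (53.8%), against 24.8% of all protein-coding genes. In the replicates the share was 51.3% ± 4.44 for V1 genes and 23.8% ± 1.61 for all (SD, n = 3). Vha36 encodes subunit D of the central shaft, and its broad copy Vha36-1 had the strongest subunit peak, at rank 168. It ranked 105, 182 and 222 in replicates 1, 2 and 3, and the summits lay within 4 bp of each other. The peak ran from 15541045 to 15541866 on 2R, with its summit 37 bp upstream of the TSS and 35 bp from that of the divergent gene CG8187. Its paralogs were far from this level. Vha36-3 had regions at rank 23779 in replicate 2 and 13296 in replicate 3 and none in replicate 1, and Vha36-2 had none.

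Vha13 encodes subunit G and Vha26 subunit E, which together form the peripheral stalks that hold V1 still while the rotor turns. Their peaks ranked 311 and 566. Vha13 ranked 319, 321 and 314 in the 3 replicates, the tightest agreement after VhaAC45 (mean percentile 98.9 ± 0.0120, SD, n = 3). Vha26 ranked 816, 554 and 568. These were the only bound members whose strongest summit within 500 bp lay downstream of the nearest TSS of the gene. It lay 164 bp downstream in a coding exon at Vha13 (3R, 19643974 to 19644648) and 420 bp downstream in an intron at Vha26 (3R, 5591563 to 5592480). Both genes have a divergent neighbour, the nucleoporin gene Nup58 at 640 bp and the splicing factor gene noi at 304 bp, but neither neighbour's TSS lay within 500 bp of the summit.

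The genes of the catalytic head had weaker peaks. Vha55 encodes subunit B, which binds ATP beside the catalytic subunit. It had rank 1510, in a long region of 2129 bp from 12626025 to 12628153 on 3R with the summit in its 5′ UTR. Vha55 was the only member lost when just the strongest summit of overlapping peaks was kept, which left 12 members bound (all genes 24.3%). It ranked 1074 and 985 in replicates 2 and 3 but 6654 in replicate 1, which left it outside the strongest 4753 there. The catalytic subunit A has 3 genes. Vha68-2 (rank 2528; 2L, 12973950 to 12974459) ranked 1549 and 3163 in replicates 1 and 2, and replicate 3 listed no region within 500 bp of any of its TSSs. Such a gap was rare. Of the 3456 bound protein-coding genes 25 (0.723%) lacked a region in replicate 3, and Vha68-2 was the only Vha gene among them. Vha68-1 (rank 3306) stood at 2168, 4144 and 5522, so that replicate 3 fell outside the strongest 4753. Vha68-3 had no region in any list.

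Vha44 encodes subunit C, which ties V1 to V0 when the pump assembles. It had rank 2663 and stood at 2192, 2680 and 3198 in the replicates, inside the strongest regions of all 3. Its summit at 16336730 on 2R lay 93 bp upstream of its TSS, and 30 bp from a TSS of Hmgs, an enzyme of the mevalonate pathway. The remaining V1 genes were not bound. For VhaSFD, which encodes the regulatory subunit H, the lists differed. It ranked 3207 in replicate 1 and 4341 in replicate 3, inside the strongest 4753 of both, while replicate 2 listed no region within 500 bp and the pooled list had it at rank 6013. Vha14-1, for the shaft subunit F, was the weakest broad gene, at ranks 10688, 28769 and 21900.

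In the V0 sector 5 of 18 genes were bound (27.8%), close to the 24.8% of all protein-coding genes. Restricted paralogs make up more of the V0 genes than of the V1 genes, and sector and breadth of expression were not separated. In the replicates the share was 25.9% ± 6.41 for V0 genes and 23.8% ± 1.61 for all (SD, n = 3). Vha16-1 encodes subunit c, the main proteolipid of the ring that carries protons. It had the strongest peak of the sector, at rank 583, and at 885, 610 and 554 in the replicates, with summits within 12 bp. The peak (2R, 6632346 to 6632926) lay in an intron relative to the longest transcript and 245 bp upstream of an internal TSS. Of the other 4 subunit c genes none was bound. Vha16-5 reached rank 4136 in replicate 1 but 9393 and 21377 in replicates 2 and 3, and Vha16-3 stood at 13455, 11123 and 8546.

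Subunit a, the membrane protein that forms the path of the protons, has 5 genes, of which 2 were bound. Vha100-2 had rank 2294 and stood at 1878, 2420 and 1867 in the replicates. Its summit (3R, 18399583) lay 414 bp upstream of its own TSS but 126 bp from a TSS of Vti1b, which encodes a vesicle fusion protein. Vha100-1, the copy known from neurons, had rank 4141, and ranks of 3664, 5156 and 4505, so that replicate 2 placed it outside. Its peak (3R, 29130872 to 29131381) also lay 155 bp from the TSS of dgt6, a subunit of the spindle protein complex augmin. Vha100-5 was listed in replicate 1 alone, at rank 11509.

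Subunit c'', a relative of subunit c in the same ring, is encoded by VhaPPA1-1 and VhaPPA1-2. VhaPPA1-1 had rank 4513 and ranks of 3318, 4591 and 4902, and VhaPPA1-2 was listed in replicate 3 alone, at rank 24960. For subunit d, which joins the shaft to the ring, the order of the copies was the other way round. The restricted copy VhaAC39-2 was bound at rank 4607, the weakest peak of any member, with ranks of 4505, 6062 and 3723. The broad copy VhaAC39-1 was not bound and ranked 9411, 16296 and 6333. No gene of subunit e, a small membrane protein, was bound. The nearest of them was VhaM9.7-b, at rank 5739 of the pooled list and 4925, 3919 and 15823 in the replicates, which makes it the first member below the end of the reproducible list. Among VhaM9.7-a, VhaM9.7-c and VhaM9.7-d the best rank was 5986, reached by VhaM9.7-a in replicate 2.

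VhaAC45 encodes Ac45, an accessory protein that in mammals guides the pump to its membranes. It had the strongest peak of the family at rank 5 of 4753, and ranks of 7, 4 and 6 in the replicates (mean percentile 99.98 ± 0.00509, SD, n = 3), with summits within 10 bp. The peak spanned 1243 bp (2R, 9206782 to 9208024), and its summit lay 196 bp upstream of the TSS. The divergent neighbour is Gnptab, whose mammalian counterpart starts the tag that sends enzymes to lysosomes, and its TSS was 241 bp from the summit. The related gene VhaAC45RP was not bound, at ranks 26074 and 10845 in replicates 2 and 3 and with no region in replicate 1.

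For each of the 13 bound members the strongest summit within 500 bp of a TSS was used. Vha13, Vha16-1 and Vha36-1 had 2 reproducible summits in that window. The median distance from summit to the nearest TSS of the gene was 149 bp, against 120 bp for all 3456 bound genes. Upstream of that TSS lay 11 summits (84.6%), against 82.7%. Among these 11, the summits of Vha55 and Vha16-1 lay inside the gene, upstream of an internal TSS only. In the replicates the median distance was 103, 144 and 157 bp. In the full lists the bound members had a median percentile of 93.7, 91.9 and 95.2, with a mean of 93.6 ± 1.66 (SD, n = 3). The replicate 3 median covers 12 genes, without Vha68-2. High percentiles follow in part from the definition, since the IDR peaks were the strongest regions of the pooled list. For genes listed in all 3 replicates the median of the mean percentile was 92.1, against 91.2 for all bound genes. Inside the reproducible list the median rank of the bound members was 2294, against 2278 for all bound genes. By replicate 7 of the 13 (53.8%) were among the strongest 4753 regions in all 3, against 69.5% of all bound genes. These 7 were VhaAC45, Vha36-1, Vha13, Vha26, Vha16-1, Vha100-2 and Vha44.

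**Figure D2:**
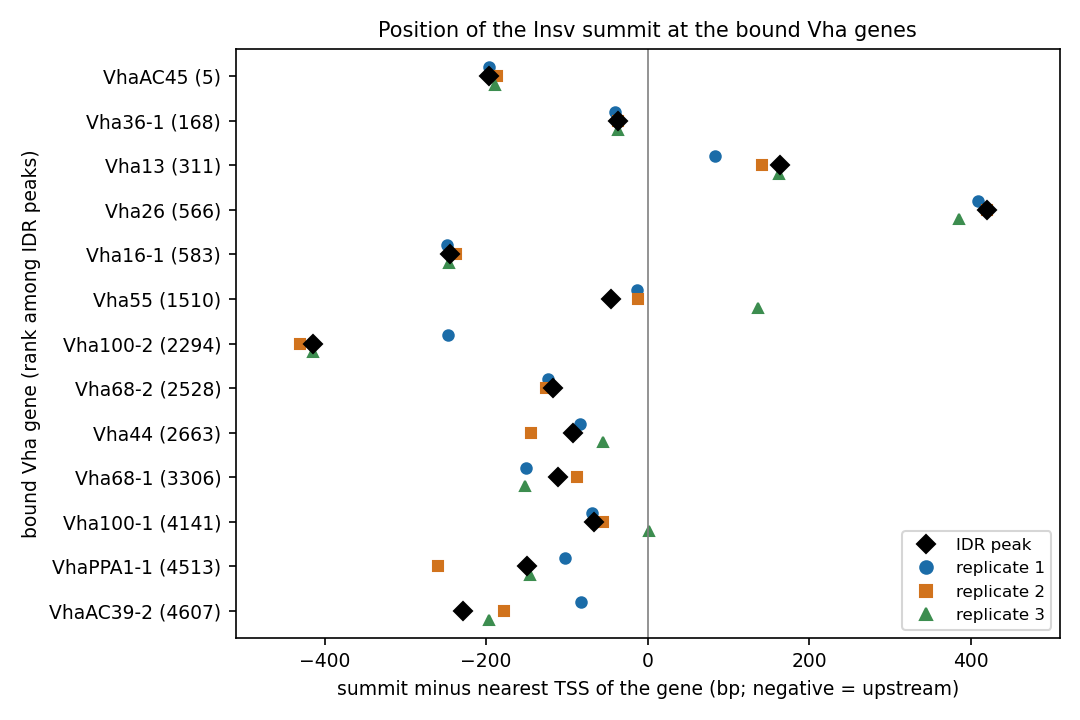
Distance in bp from each summit to the nearest TSS of the gene, for the 13 bound Vha genes in order of rank, with black diamonds for the IDR peak and coloured symbols for the replicates. The 4 summits of VhaAC45, Vha36-1 and Vha16-1 lie nearly on top of each other. At Vha55, which has 3 TSSs, the nearest one differs between lists, and the plotted distances are -13, -12 and 137 bp in replicates 1, 2 and 3.

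Neighbouring genes share many of these peaks. Of the 33 members 12 have a divergent partner whose outermost TSS is at most 1000 bp away, and 7 of these 12 were bound (58.3%), against 6 of the other 21 (28.6%). Over all protein-coding genes the shares were 43.7% with such a partner and 15.3% without. The broad genes were bound in both settings, at 4 of 6 with a partner and 5 of 7 without. The restricted ones were bound at 1 of 3 with a partner and 1 of 11 without. At 7 of the 13 bound members the TSS of another gene also lay within 500 bp of the summit, namely Gnptab, CG8187, Snx3, Vti1b, Hmgs, mTor and dgt6. For 3 of these, CG8187, Vti1b and Hmgs, it was nearer than that of the Vha gene. The matching share over all bound genes is not given here, so the count of 7 describes these members only. Which of the genes such a peak acts on was not tested.

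The partner of Vha68-1 is mTor, the kinase that senses nutrients at the lysosome surface. Their TSSs lie 373 bp apart, with the summit at 13004218 on 2L between them, 111 bp from Vha68-1 and 262 bp from mTor.

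Some of the paralogs counted above are tandem copies, which lie side by side on the same strand. There were 4 such pairs, and in 3 the first gene was bound and the second was not. In these 3 the first gene is broad and the second restricted, so they repeat part of the contrast above and add no separate evidence. Vha68-2 lies 178 bp before Vha68-3, Vha100-2 lies 517 bp before Vha100-4, and VhaPPA1-1 lies 2052 bp before VhaPPA1-2. The second genes of these pairs had no region in any replicate, except for the weak one of VhaPPA1-2 in replicate 3. In the fourth pair, Vha16-3 and Vha16-2 at 985 bp, neither was bound.

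**Figure D3:**
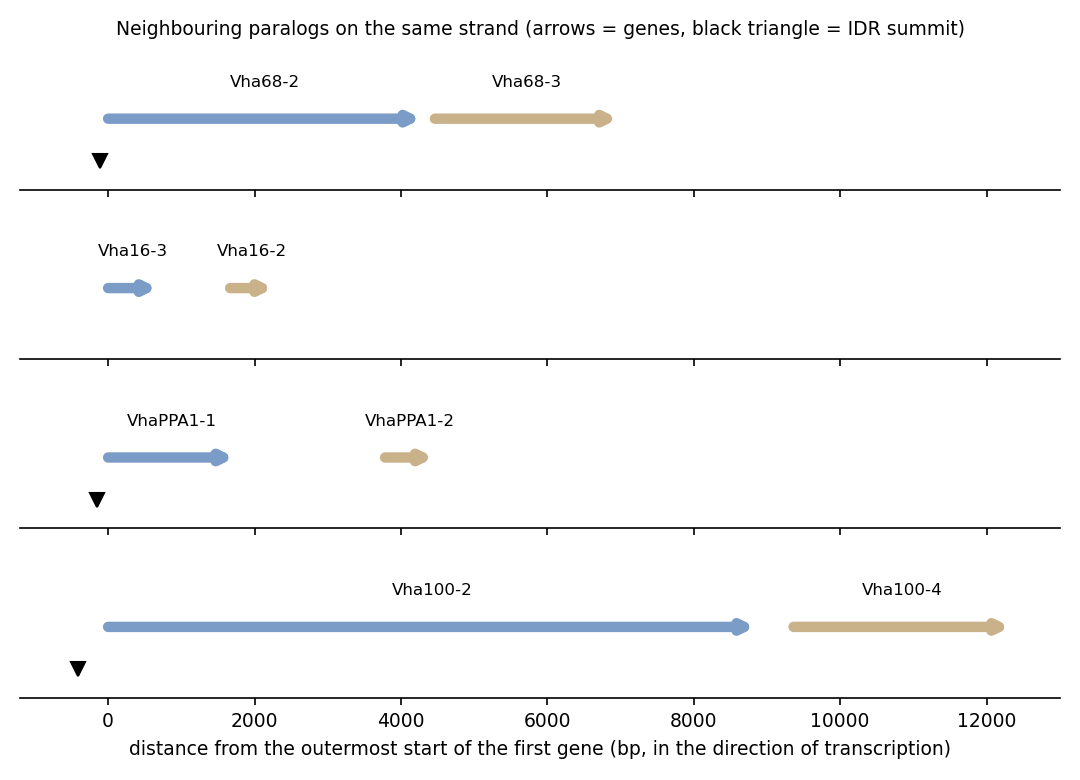
The 4 pairs of neighbouring Vha paralogs on the same strand, drawn to scale in bp from the outermost start of the first gene. Arrows are genes, and black triangles are the strongest IDR summit within 500 bp of a TSS of each bound gene. Every summit drawn lies before the first gene of its pair. Summits farther from a TSS are not drawn.

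Sites of Insv itself were present at 2 of the bound members. Of the 13 bound members only Vha16-1 held the core palindrome within 50 bp, with its centre 7.5 bp from the summit, against 3.47% of all IDR summits and 0.283% of low-ranked regions. At Vha13 the palindrome shown in the sequence above lay 47.5 bp from the summit, partly beyond the 50 bp window, in an intron next to the coding exon. Within 250 bp these 2 of 13 (15.4%) held it, against 7.49% of all IDR summits. The other 11 did not, among them VhaAC45 and Vha36-1 with the strongest peaks. The longer degenerate Insv site was at none of the 13 within 50 bp (0 of 13; all IDR summits, 4.50%). Within 100 bp it was at Vha13, where it overlaps the palindrome, against 6.42% of all IDR summits, and the site CCAATAAG of the related Elba complex was at none within 250 bp, where 4.99% of all IDR summits had it.

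Sites of general promoter proteins were present at some members. BEAF-32 binds boundaries and housekeeping promoters, and its site was within 50 bp of the summit at Vha36-1, Vha68-1, Vha68-2 and VhaPPA1-1, 4 of 13 (30.8%) against 23.7% of IDR summits at protein-coding TSSs. In wider windows the order turned, with 4 of 13 against 40.0% within 100 bp and 7 of 13 (53.8%) against 64.2% within 250 bp. M1BP acts at promoters with paused polymerase, and its site was at Vha68-2 within 50 bp and also at Vha100-1 and Vha16-1 within 100 bp, against 4.26% and 8.56% of those summits. The DREF site was within 250 bp of none, and 14.5% of those summits had it. In promoters taken as 250 bp before to 50 bp after each TSS, it was in Vha55 and VhaSFD, 2 of 33 members (6.06%), against 10.2% of all protein-coding genes.

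In flies and mammals the transcription factors of the Mitf and TFEB family activate V-ATPase genes through an E-box, CACGTG, and its longer form TCACGTGA. CACGTG lay 10.5 bp from the Vha55 summit and 48.5 bp from the Vha44 summit, where it is part of the longer form. Within 50 bp only Vha55 held the whole site, 1 of 13 against 1.36% of IDR summits at protein-coding TSSs. Both genes, 2 of 13, held it within 100 bp, against 3.10% of those summits. Within 250 bp it was the same 2, against 7.59%. Among all 33 members it was in the promoters of Vha44, Vha55, Vha68-2, VhaAC45RP and VhaM9.7-d (15.2%), against 5.34% of all protein-coding genes. The longer form was in 2 promoters, those of Vha44 and of an internal start of Vha68-2 (6.06%), against 0.201% of all genes. All of these matches are descriptions of sequence, and binding of the factors was not measured.

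**Figure D4:**
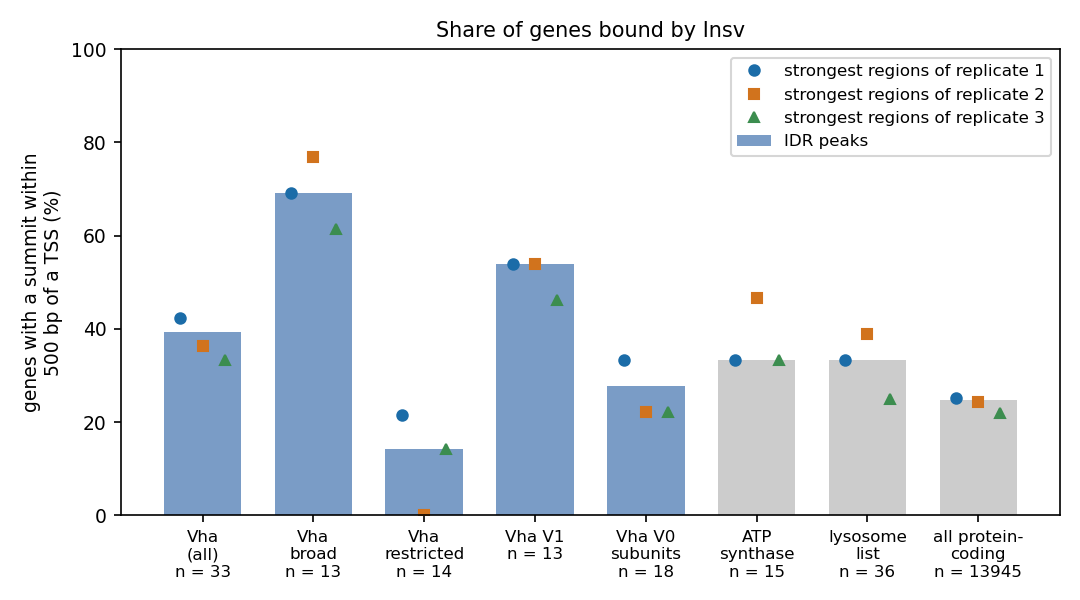
Share of genes in percent with an Insv summit within 500 bp of a TSS. Bars use the IDR peaks, and symbols use the 4753 strongest regions of each replicate. Broad Vha genes stand at 61.5 to 76.9% in the replicates, restricted paralogs at 0 to 21.4% and all protein-coding genes at 22.0 to 25.1%.

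For context, 2 related groups were counted in the same way. The mitochondrial ATP synthase, which shares its rotary build with the V-ATPase, had 5 of 15 genes with symbols starting with ATPsyn bound (33.3%), and 3 with either replicate 1 or replicate 2 left out (all genes 19.1% and 18.1%). Its strongest peak was at ATPsynF, at rank 22, followed by ATPsynC (1612), ATPsyngamma (3315) and ATPsynB (3522). ATPsynbetaL, ATPsynCF6, ATPsynCF6L and ATPsynD were among the 10 without a peak. A list of 36 genes of lysosome function and of Tor signalling at the lysosome had 12 bound (33.3%) and 24 not, mTor included. The strongest were Rbcn-3A, which helps the V-ATPase to assemble (rank 234), the lysosomal transporter gene spin (236), the GATOR2 gene Wdr24 (254) and the sterol transporter gene Npc1a (1993). The protease gene cathD, the chloride channel genes ClC-b and ClC-c and the protease gene CtsF were among the unbound. The Vha share minus that of the ATP synthase genes was 9.09, -10.3 and 0 percentage points in replicates 1, 2 and 3, and minus that of the lysosome genes it averaged 4.97 ± 6.50 (SD, n = 3), so both differences lay within the replicate spread. Exact sign-flip permutation tests, two-sided, gave p = 1 and 0.5 (adjusted p = 1 and 0.6). The ATP synthase share exceeded that of all protein-coding genes by 13.9 ± 7.36 percentage points and the lysosome share by 8.56 ± 5.75 (SD, n = 3), in 3 of 3 replicates each. The exact sign-flip p was 0.25 for both, two-sided (adjusted p = 0.375). Both Wilson intervals above, which cover the counting error, include 24.8%.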

How the data were processed

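The authors deposited region lists in narrowPeak format on dm6 and dm3. Per the file headers, each replicate list was called on its alignment and a control alignment, a pooled list on all 3 replicates, and the IDR list was derived from these. No source used here gives the caller, its settings or the IDR threshold. The deposited signal value is a score of unstated scale, used as a rank within its list. From the deposited −log10 q-values came the numbers of regions under a q-value of 0.05. Summits were deposited as offsets in bp. The 4753 IDR peaks were the 4753 highest-scoring regions of the pooled list, so they are not independent of the replicate lists. The dm3 lists were not used.

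Genes and TSSs came from Ensembl release 115 (BDGP 6.54), limited to the major arms, and sequence from the RefSeq genome of the same assembly. Positions count from 1. As low-ranked regions served the 14491 of the lower 50% of the pooled list that overlap no IDR peak. Motifs were sought on both strands. Divergent pairs used the outermost TSS of each gene. No set test was run, since genes are not replicates. Wilson intervals cover counting error only, and the SD over the 3 replicates covers repeated measurement of the same genes only. The gene assignment was tested on simulated data. All 33 members are named, with, for the related lists, up to 4 bound genes by rank and 4 unbound ones in alphabetical order. Members, classes, lists and motifs were chosen with earlier results of these data known. In the lysosome list the symbol of Tor was changed to mTor, its name in the annotation, after the data were seen (12 of 36 genes bound with it, 11 of 35 without). VhaM8.9 carries another symbol in the annotation and is not counted. Alternatives were other TSS distances and sets, assignment rules, peak thresholds and classes, and leaving out each replicate. Scripts ran in Python 3.11.15 with scipy 1.17.1, pandas 2.3.3, numpy 2.4.6, and matplotlib 3.10.9 for the plots.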

Additional observations from a re-analysis of the deposited data

How the results depend on the processing

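The Vha count of 13 (all genes 24.8%) was between 11 and 14 with other TSS distances, TSS sets and assignment rules. The share of all genes under these settings was 20.4 to 27.5%. It was 7 with the stronger 50% of peaks (all genes 13.0%; 7.33 on average in the replicates) and 20 with all pooled regions of q below 0.05 (all genes 43.8%), an alternative chosen after seeing the data. The 7 genes added there were Vha16-3, Vha16-5, VhaAC39-1, VhaM9.7-a, VhaM9.7-b, VhaM9.7-c and VhaSFD. Leaving out a replicate kept only IDR summits among the strongest regions of both others and gave 8 to 10 members, with 8 without replicate 1 (all genes 19.1%, 18.1% and 20.0% without replicates 1, 2 and 3). The broad minus restricted difference was positive under every setting run, from 39.6 to 63.7 points on the IDR or pooled list (43.6 and 52.6 under the other class divisions) and from 41.8 to 67.6 as a mean over the replicates, and 31.9 to 61.5 points on the IDR list when a replicate was left out, the lowest without replicate 2. The median summit distance was 196 bp for the stronger 50% of peaks, 180 bp with TSSs within 1000 bp, and 157 to 196 bp when a replicate was left out. Members with the Insv core numbered 2 within 100 bp (all IDR summits 4.59%) and likewise 2 within 250 bp (7.49%). The ATP synthase count, of 15, was 8 with TSSs within 1000 bp (all genes 27.5%), 2 with the stronger 50% of peaks (13.0%) and 3 to 4 when a replicate was left out (18.1 to 20.0%), and the lysosome count, of 36, was 5 with the stronger 50% (13.0%). The causes were not tested. No paired analysis was possible because the samples form a single group. Unknown read depth limits what can be said of genes without a listed region.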
